A study of Rattus norvegicus with 9 samples.

Results

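The mitochondrial ribosomal proteins were followed in rat kidneys by reading every gene probe of the arrays whose gene name starts with Mrpl (large subunit) or Mrps (small subunit). This gave 71 genes, 42 of the large and 29 of the small subunit, measured by 82 of 30367 gene probes and 218 of 58717 gene spots. The members are 71 of 26115 gene names on the array. Of these, 70 members passed the filter on dim probes and are among the 13837 genes tested. The name rule also leaves out 3 genes written in lower case (mrpl9, mrpl11 and mrpl24), whose log2 fold changes of -0.062, -0.023 and -0.055 are given here only for completeness.

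The mitochondrial ribosome translates the few messages of the mitochondrial genome, all of which code for subunits of the respiratory chain and of ATP synthase. Its proteins are encoded in the nucleus, translated in the cytosol and imported, whereas its RNAs are made inside the mitochondrion. Kidney tubules, above all the proximal tubule and the thick limb, pay for salt transport with oxidative phosphorylation and are rich in mitochondria. Some of the proteins have homologues in bacterial ribosomes and others are found in mitochondria only.

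All kidneys came from Fisher F344 rats in a model of donation after circulatory death (DCD), with 20 min. of warm ischaemia before removal. NP kidneys (5 arrays) had ischaemia alone, and MSC kidneys (4 arrays) were then perfused for 4 hrs at 4°C with Belzer solution (BS) carrying 3000000 mesenchymal stromal cells (MSC) grown from the bone marrow of Sprague Dawley rats transgenic for EGFP. The comparison asks how the messages of kidneys perfused with MSC differ from those of kidneys left unperfused, and the perfusion and the MSC cannot be told apart in it, because no kidney perfused with BS alone was analysed here. The study discarded 1 further MSC array, which was not analysed here either. The submitters' treatment field calls the controls not perfused while their titles and descriptions name a perfusion with BS, and the treatment field was followed. The clamped vessel is the abdominal aorta in the labels and the renal artery in the methods, the age of the rats is not given in the sources used here, and per the methods the tissue of both groups was kept in RNAlater. The arrays hold total RNA of kidney tissue, in which fewer cells of a type and less RNA per cell cannot be told apart.

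All 11 kidney markers looked at were well above background on all 9 arrays, among them Lrp2 and Slc34a1 of the proximal tubule, Umod of the thick limb and Aqp2 of the collecting duct. Between 65.6% and 74.3% of gene spots were well above background on an array. All 5 of 7 fat markers that passed the filter were on average higher in MSC (smallest limma FDR 0.335). The mean centred log2 intensity of the fat markers lay between -0.88 and 0.016 on the NP arrays and at -0.81, -0.20, 2.13 and 1.25 on MSC 1 to 4. No kidney marker passed the test (smallest limma FDR 0.352). The mean of the 4 proximal tubule markers was -0.014 ± 0.18 in NP and 0.017 ± 0.068 in MSC. The mean of the 2 collecting duct markers lay between -0.53 and 0.041 in NP and between 0.071 and 0.39 in MSC, with no overlap. That of the 2 thick limb markers was -0.14 ± 0.31 in NP and 0.18 ± 0.30 in MSC, and the distal convoluted tubule marker Slc12a3 was at -0.26 ± 0.45 and 0.33 ± 0.15. The 2 podocyte markers had 0.15 ± 0.25 and -0.18 ± 0.70, with MSC 4 at -1.19, and the 2 stromal cell markers that passed had -0.13 ± 0.22 and 0.16 ± 0.18. The 3 leukocyte markers that passed had -0.055 ± 0.14 and 0.069 ± 0.11. The 3 red cell markers that passed had a mean of -0.011 to 0.93 in NP and -2.08 to 0.36 in MSC. Their log2 fold changes were -1.74 for Alas2, -1.68 for Hbb and 0.083 for Slc4a1 (limma FDR 0.348, 0.415 and 0.841). On the MSC 3 and MSC 4 arrays, with the most fat signal, the mean of the large subunit was -0.035 and 0.011 and that of the small subunit 0.0036 and -0.014, inside the range of the NP arrays for both subunits, and the part of other cell types in the values below was not tested. The 9 arrays lay on 2 slides, slide 1 with NP 1, 2 and 3 and MSC 1 and 2, and slide 2 with NP 4 and 5 and MSC 3 and 4.

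The probes are the part of each message that was actually read, and those printed here belong to members described in detail below. Each is given 5′ to 3′ in the sense of the message, in lower case, with its rn4 position as the array files give it, and each has at least 1 reading frame without a stop. A position longer than the probe means that it joins exons.
Mrpl3 at chr8:110138311-110140337 (plus strand): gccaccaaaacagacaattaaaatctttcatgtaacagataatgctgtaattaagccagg
Mrpl23 at chr1:202787622-202787681 (plus strand): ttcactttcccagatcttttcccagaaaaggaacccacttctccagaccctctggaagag
Mrpl42 at chr7:32702599-32702658 (minus strand): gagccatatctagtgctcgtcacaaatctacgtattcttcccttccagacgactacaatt
Mrps35 at chr4:184656638-184660684 (plus strand): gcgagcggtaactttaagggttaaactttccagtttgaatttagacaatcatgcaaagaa
Mrps22, with no rn4 position in the files: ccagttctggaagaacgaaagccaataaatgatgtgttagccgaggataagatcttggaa
Mrpl35, its probe near the start of the message, at chr4:105106986-105111007 (minus strand): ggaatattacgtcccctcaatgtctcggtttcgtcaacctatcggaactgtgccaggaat

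Of the 82 member probes, 2 share stretches of 15 bases with 20 or more promoter windows, the sequences searched here. At least 1 of the stretches of 15 bases of the Mrpl10 probe at chr10:85770281-85770340 was found, on either strand, in 92 of the 33469 promoter windows that RefSeq gives on GRCr8, and at least 1 of those of the Mrps15 probe at chr5:145408255-145408314 in 52. The single stretch found most often was in 76 promoters for Mrpl10 and in 18 for Mrps15. No other member probe shared 15 bases with more than 5 promoters, and 36 shared none. Over the array 298 of 30367 gene probes (0.981%) reached 20 promoters. The bases below are 30 of each probe, with capitals for stretches found in 5 or more promoters. They lie 1629 and 2089 bases into the message, and this property was looked for after the values had been seen.
Mrpl10, bases 1 to 30: CTTCTGGTGTGTCTGAAGACAGatactgtg
Mrps15, bases 10 to 39: tTCTGGCTGTCCTGGAACTCTGTAGACCAG

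In limma, no member had both an FDR below 0.05 and a change of more than 1.5-fold, and neither did any of the 13837 genes tested (0%), although 2 genes did with array weights and 4 within slide 2, none of them a member. The smallest FDR of a member was 0.335, for Mrps15. At an unadjusted p under 0.05, 6 members were higher in MSC (4 of the large and 2 of the small subunit), where 6.58% of all genes were, and 2 were lower (1 of each subunit), where 5.10% of all genes were. With 70 members tested, both counts lie near what these shares of all genes give. The count of 6 became 2 without MSC 1 (4.91% of all genes) or MSC 2 (4.94%). It became 3 without NP 2 (5.99%), NP 5 (6.99%) or MSC 4 (5.07%). The count of 2 became 0 without NP 3 (3.53% of all genes), MSC 2 (3.86%) or MSC 3 (3.31%). It became 1 without NP 4 (4.73%) or MSC 4 (3.7%), and 4 without NP 1 (9.3%) or NP 5 (5.17%). The groups did not overlap for 3 members higher in MSC (3.17% of all genes) and for 3 lower ones (2.13% of all genes).

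The fold changes were small in both subunits. In the large subunit 21 members were on average higher and 21 lower in MSC, with a median log2 fold change of -0.0017 and a range from -0.32 (Mrpl38) to 0.31 (Mrpl3). In the small subunit 17 were higher and 11 lower, with a median of 0.026 and a range from -0.32 (Mrps35) to 0.50 (Mrps15). Over all genes the median was -0.0060, and 48.6% were higher. No member (0 of 70) differed by more than 1.5-fold, where 302 of all genes did (2.18%), so that few members would be past it at that share. The 95% interval of the fold change stayed within 1.5-fold either way for 65 of 70 members (92.9%), against 77.6% of all genes, and the 5 whose interval reached further were Mrpl3, Mrpl38, Mrpl43, Mrps15 and Mrps35. The residual SD between arrays had a median of 0.11 log2 units for the members and 0.18 for all genes. It was 0.12 for complex I of the respiratory chain and 0.15 for the cytosolic ribosomal proteins. No gene of either of these groups differed by more than 1.5-fold.

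**Figure D1:**
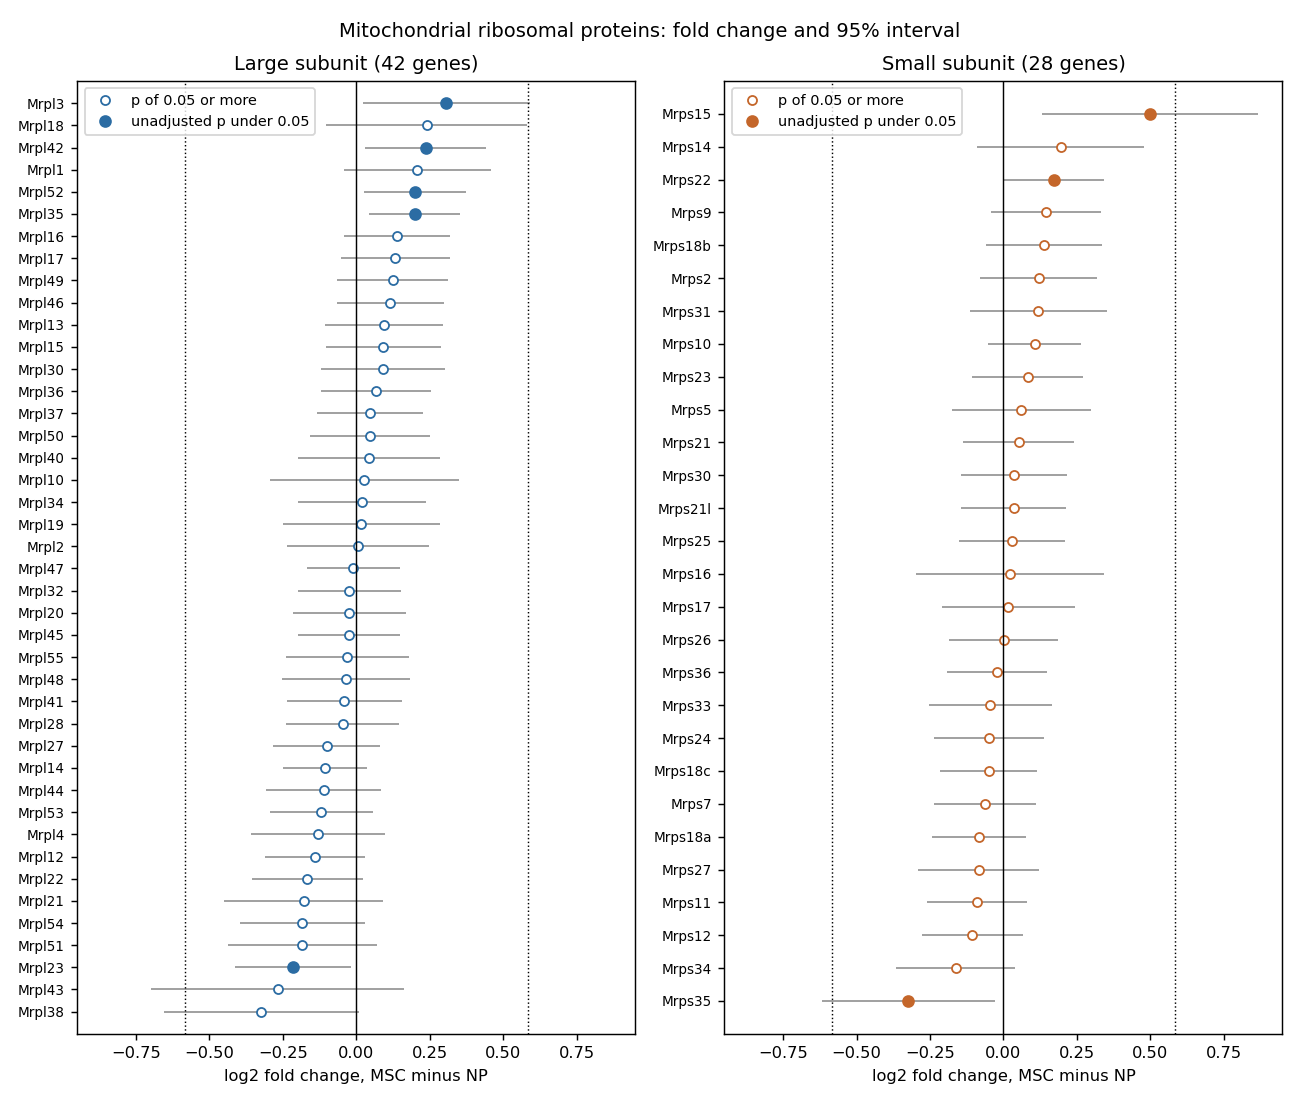
Log2 fold change of each member, MSC minus NP (x axis, points), with its 95% interval (grey lines), for the 42 genes of the large subunit (left) and the 28 of the small subunit (right) that passed the filter, sorted by value. Filled points have an unadjusted p under 0.05 and dotted lines mark a change of 1.5-fold. All points lie within the dotted lines, from -0.32 to 0.50.

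Of the large subunit proteins, Mrpl35 has a homologue in bacteria. Its probe at chr4:105103419-105103478, 1477 bases into the message, read 11.90, 11.76, 11.78, 11.84 and 11.79 normalized log2 units on NP 1 to 5. On MSC 1 to 4 it read 12.06, 11.997, 12.05 and 11.94, so that every MSC array lay above every NP array. The log2 fold change was 0.20 ± 0.069 (SE, limma FDR 0.348). The probe printed above, 86 bases into the same message, gave 0.037 ± 0.090 (limma FDR 0.899, in a fit of all probes), with NP arrays at 13.48, 13.11, 13.26, 13.16 and 13.14 and MSC arrays at 13.28, 13.32, 13.23 and 13.23, which overlapped. The higher value of Mrpl35 therefore rests on 1 of its 2 probes.

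Mrpl52 and Mrpl42 are proteins of the large subunit without a bacterial homologue. Mrpl52 read 12.23, 12.01, 12.10, 12.27 and 12.21 on NP 1 to 5. On the MSC arrays it read 12.41, 12.38, 12.32 and 12.35, all above the NP arrays, with a log2 fold change of 0.20 ± 0.078 (limma FDR 0.390). Within slide 1 the difference was 0.28 and within slide 2 it was 0.096. Mrpl42, read by the probe printed above, was at 12.68, 12.58, 12.92, 12.67 and 12.61 in NP. It was at 13.03, 12.95, 12.78 and 12.95 in MSC, where MSC 3 lay below NP 3, so that the groups overlapped. Its log2 fold change was 0.24 ± 0.092 (limma FDR 0.390).

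Mrpl3 and Mrpl23 both have bacterial homologues, the former near the catalytic centre and the latter at the exit of the peptide tunnel. Mrpl3 read 12.01, 11.31, 11.66, 11.53 and 11.67 in NP. In MSC it read 12.01, 11.998, 11.89 and 11.87, and NP 1 was as high as the highest MSC array. The log2 fold change was 0.31 ± 0.13 (limma FDR 0.407). Mrpl23 was the only large subunit member lower in MSC at this p. Its NP arrays were at 13.65, 13.93, 13.89, 13.80 and 13.69 and its MSC arrays at 13.70, 13.55, 13.57 and 13.48, with MSC 1 above NP 1 and NP 5. Its log2 fold change was -0.22 ± 0.088 (limma FDR 0.398).

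In the small subunit Mrps15, which binds the ribosomal RNA of that subunit, had the highest fold change of all members. It read 11.80, 11.05, 11.26, 11.60 and 11.42 in NP and 11.74, 12.10, 11.70 and 12.16 in MSC. NP 1 lay above MSC 1 and MSC 3. The log2 fold change was 0.50 ± 0.16 (limma FDR 0.335), which is 1.41-fold, and it was 0.55 within slide 1 and 0.42 within slide 2. The part that the recurring stretch in its probe has in these values was not tested.

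Mrps35 and Mrps22 are small subunit proteins found in mitochondria only, and variants of the human MRPS22 gene cause a defect of oxidative phosphorylation. Mrps35 read 13.25, 13.89, 13.53, 13.32 and 13.27 in NP and 13.06, 13.17, 13.07 and 13.20 in MSC. Every MSC array lay below every NP array, and NP 2 stood highest. The log2 fold change was -0.32 ± 0.13 (limma FDR 0.398), at -0.44 within slide 1, which holds NP 2, and -0.16 within slide 2. Without NP 2 it was -0.22. Mrps22 read 10.98, 11.004, 11.15, 11.19 and 11.02 in NP and 11.26, 11.19, 11.20 and 11.31 in MSC. The groups were separated by less than 0.01 log2 units between NP 4 and MSC 2, and the log2 fold change was 0.17 ± 0.076 (limma FDR 0.426).

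**Figure D2:**
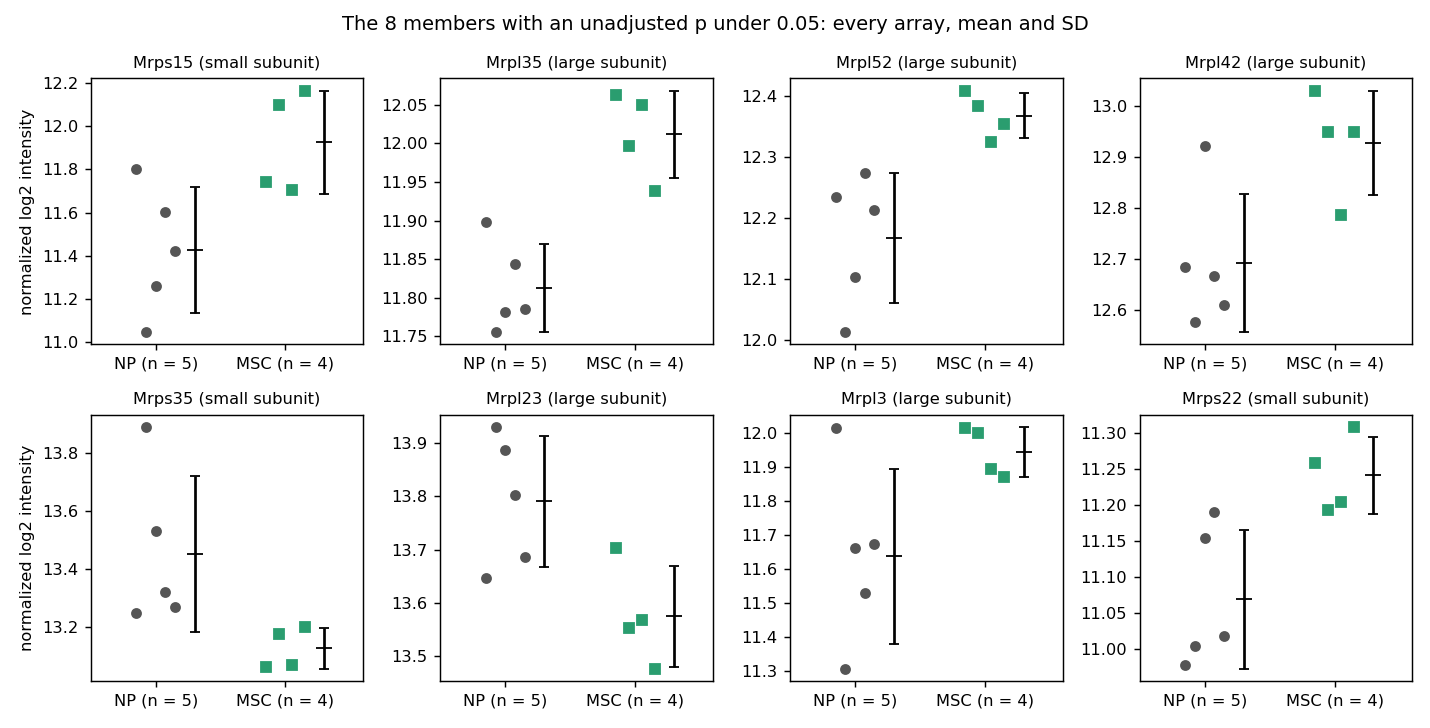
Normalized log2 intensity (y axis, a scale of its own in each panel) of the 8 members with an unadjusted p under 0.05 on the 5 NP arrays (circles) and the 4 MSC arrays (squares), with the mean and SD of each group beside them. The groups are separated for Mrpl35, Mrpl52, Mrps22 and Mrps35 and overlap for the other 4.

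A separation of the groups and a small p did not always go together. Mrpl12, part of the stalk that recruits translation factors, was below every NP array on every MSC array (16.40, 16.39, 16.39, 16.54 and 16.51 in NP, and 16.35, 16.19, 16.39 and 16.28 in MSC), though by less than 0.01 between NP 2 and MSC 3. Its log2 fold change was -0.14 ± 0.076 (limma FDR 0.496). Mrpl14 was separated in the same direction, with NP arrays from 15.32 to 15.41 and MSC arrays from 15.23 to 15.28 (-0.11 ± 0.064, limma FDR 0.532).

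The other members with the most extreme fold changes in their subunit did not pass the test either. Mrpl38 had a log2 fold change of -0.32 ± 0.15 (limma FDR 0.436), with NP arrays from 11.83 to 12.50. Mrpl43 had one of -0.27 ± 0.19 (limma FDR 0.607), with NP 3 at 10.04 and the other NP arrays from 8.97 to 9.56, and without NP 3 it had -0.11. Mrpl18, which binds a small ribosomal RNA in bacteria, had 0.24 ± 0.15 (limma FDR 0.557), and 0.14 without NP 1. In the small subunit, Mrps14 had 0.20 ± 0.13 (limma FDR 0.567), and 0.089 without NP 2. Mrps34 had -0.16 ± 0.091 (limma FDR 0.512). Mrps12, a protein of the decoding centre, had -0.11 ± 0.077 (limma FDR 0.607), and -0.066 without MSC 4. All 6 overlapped between the groups.

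Some names do not match the place of the protein. Mrps18a and Mrps30 sit in the large subunit in known structures, and they had log2 fold changes of -0.084 ± 0.072 and 0.036 ± 0.081. Mrps36 is now called Kgd4 and belongs to the alpha-ketoglutarate dehydrogenase complex, and its log2 fold change was -0.022 ± 0.077. With these moved or left out, the median of the large subunit stayed at -0.0017 and that of the small subunit was 0.030. Mrps18b and Mrps18c, the paralogues of Mrps18a, had 0.14 ± 0.088 and -0.050 ± 0.074. Leaving out 1 array moved these small values widely, with Mrps18c at -0.013 without MSC 1, -0.026 without NP 4 and -0.083 without MSC 4, and Mrps30 at 0.082 without NP 1, 0.0024 without NP 3 and 0.013 without NP 4. None of the 3 paralogues passed the test (limma FDR 0.557 to 0.820).

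Ribosome nomenclature separates proteins that stand in the place of a bacterial one from those named as mitochondria-specific, a class that holds Mrps18a and Mrps18b although both belong to the S18 family. The 26 large subunit proteins of the former kind had a median log2 fold change of 0.012 and the 18 of the latter, Mrps18a and Mrps30 among them, one of -0.030. In the small subunit the medians were 0.037 for 14 and 0.015 for 10 proteins. The classes were not tested against each other.

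For 9 members, 2 probes passed, and their values here are from a fit of all probes. Both probes of Mrpl54 were lower in MSC, at -0.19 ± 0.071 (limma FDR 0.374) and -0.18 ± 0.094 (limma FDR 0.478), although they overlap by most of their length and are not independent readings. Those of Mrpl17 gave 0.027 ± 0.090 and 0.13 ± 0.081, and those of Mrpl41, which also overlap, gave -0.058 ± 0.068 and -0.040 ± 0.087. The probes of Mrpl40 (0.045 and -0.041), Mrps16 (0.023 and -0.054) and Mrpl2 (0.0066 and -0.024) had opposite signs, each closer to 0 than its SE. The probes of Mrps21 gave 0.052 and 0.00056, and the former ran from 0.015 to 0.086 in the fit of genes when each array was left out. Those of Mrpl10 gave 0.027 and 0.033, but NP 2 stood at 16.26 against 15.55 to 15.71 for the other NP arrays on the probe with the recurring stretch, and at 11.57 against 11.01 to 11.43 on the other.

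Mrps28 was the member that did not pass the filter. Its probe was well above background on no array, with 7.86 to 7.97 log2 units in NP and 7.72 to 7.92 in MSC, so that only a bound exists for it. A second probe of Mrpl30 and one of Mrpl50 stayed below the filter too, whereas the kept probes of both genes were measured on all 9 arrays. Mrps21l is a close relative of Mrps21 in name, and how far their probes read each other's message was not tested.

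To compare the subunits on each array, each member was centred on its mean over the 9 arrays and the members of a subunit were averaged. The large subunit had means of 0.013, -0.030, 0.093, -0.024 and -0.051 on NP 1 to 5. On MSC 1 to 4 these were -0.0021, 0.026, -0.035 and 0.011. The group means were 0.00015 ± 0.057 (SD, n = 5) in NP and -0.00019 ± 0.026 (SD, n = 4) in MSC, and every MSC array lay inside the range of the NP arrays.

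The small subunit had means of 0.061, -0.095, 0.027, -0.027 and -0.026 on NP 1 to 5 and 0.036, 0.034, 0.0036 and -0.014 on MSC 1 to 4. NP 2 was lowest and NP 1 highest. The group means were -0.012 ± 0.060 in NP and 0.015 ± 0.024 in MSC. The difference of the large minus the small subunit ranged from -0.048 to 0.066 in NP and from -0.039 to 0.025 in MSC, with means of 0.012 ± 0.052 and -0.015 ± 0.030, which overlapped too. The NP arrays spread more than the MSC arrays in both subunits, and did so for complex I as well (SD 0.051 against 0.025). For the cytosolic ribosomal proteins the SDs were 0.11 and 0.071. Over all genes, the median absolute deviation was 0.17 on NP 1 and 0.18 on NP 2. On the other arrays it was 0.086 to 0.10. The difference of spread was not tested.

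**Figure D3:**
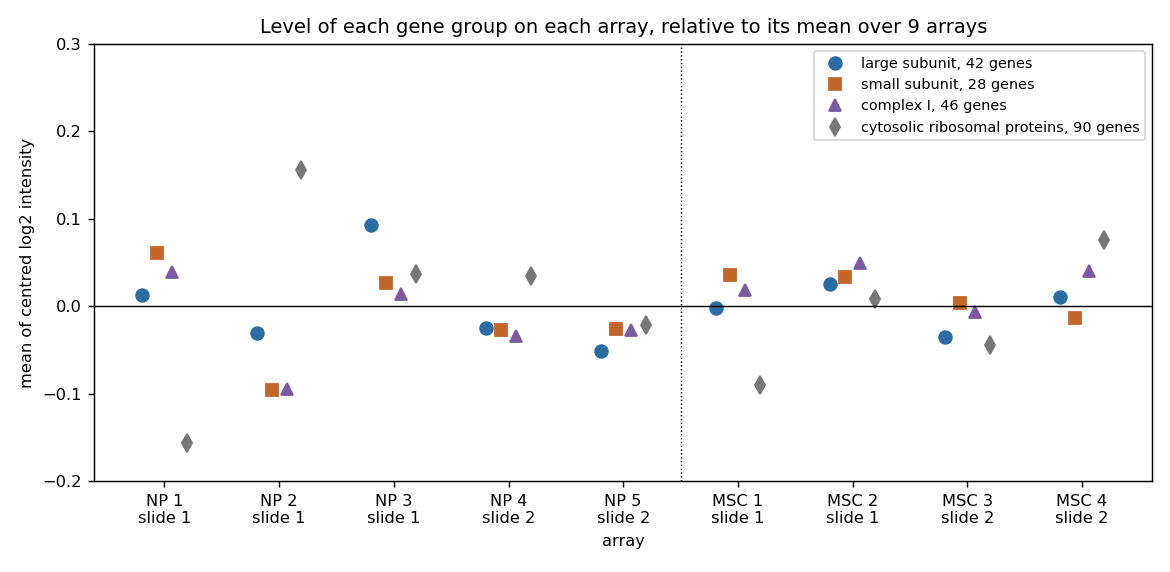
Mean centred log2 intensity (y axis) of the large subunit, the small subunit, complex I and the cytosolic ribosomal proteins on each of the 9 arrays (x axis, with the slide of each). The values of both subunits lie between -0.095 and 0.093 and do not separate NP from MSC, and the cytosolic ribosomal proteins run from -0.16 on NP 1 to 0.16 on NP 2.

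Within the groups the members moved together only weakly. The mean correlation of pairs of members over the 9 arrays, after taking out the group means, was 0.088 (0.082 within the large and 0.11 within the small subunit, and 0.086 between them), against 0.014 for all genes. For the cytosolic ribosomal proteins it was 0.31 and for complex I 0.059. The members had a mean correlation of 0.080 with complex I and of -0.11 with the cytosolic ribosomal proteins. These values share 9 arrays, their depth and their labelling, and stand as a description. The array on which most members deviated the same way was NP 3, where 54 of 70 lay above their NP mean, and on NP 2, where the spots of one probe varied most (10.3%), 24 of 70 did.

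Complex I of the respiratory chain, some of whose subunits the mitochondrial ribosome translates, and the cytosolic ribosome were taken as the nearest gene groups. Of 46 nuclear complex I genes that passed, 27 were higher in MSC, with a median log2 fold change of 0.020, and 4 were higher and 0 lower at an unadjusted p under 0.05. Of 90 cytosolic ribosomal proteins 39 were higher, with a median of -0.020, and 2 were higher and 5 lower at that p. Over all genes 6.58% were higher and 5.10% lower at that p, and no test was run between the lists.

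Other genes of mitochondrial translation were taken from lists written for the pathway. Of 7 mitochondrial ribosomal proteins with other names, 1 was on average higher and 6 lower in MSC, with a median log2 fold change of -0.079. Of all genes, 48.6% were higher. Gadd45gip1, a large subunit protein also known as a cell cycle factor, read 14.01, 14.21, 14.27, 14.19 and 13.94 in NP and 13.95, 13.92, 13.84 and 13.80 in MSC, which overlapped (-0.24 ± 0.090, limma FDR 0.372). It was the only one of the 7 with an unadjusted p under 0.05, where 5.10% of all genes were lower at that p.

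The list of 15 translation factors holds genes that start, extend and end the peptide chain on the mitochondrial ribosome, together with Mtfmt, which formylates the initiator tRNA, Taco1, a translational activator, Oxa1l, a membrane insertase, and Lrpprc and Slirp, which stabilise mitochondrial messages. Of all 15, 13 were on average higher in MSC, with a median log2 fold change of 0.098, where 48.6% of all genes were higher. Guf1, a ribosome-bound GTPase, was the only one with an unadjusted p under 0.05, where 6.58% of all genes were higher at that p. It read 11.98, 12.39, 12.37, 12.55 and 12.44 in NP and 12.63, 12.72, 12.55 and 12.60 in MSC. Every MSC array lay above every NP array, by less than 0.01 log2 units between NP 4 and MSC 3 (0.28 ± 0.11, limma FDR 0.395). Of all genes, 3.17% were separated in this direction.

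The counts that follow stand against the same shares of all genes, 6.58% higher and 5.10% lower. Among 22 assembly factors 13 were higher, with a median of 0.014. The 2 with an unadjusted p under 0.05 were Mterfd2, which brings a methyltransferase to the large subunit (0.32 ± 0.11, limma FDR 0.336), and Gtpbp5, a GTPase of large subunit assembly (0.22 ± 0.093, limma FDR 0.408). Of 17 mitochondrial aminoacyl-tRNA synthetases and their partners that passed, out of 19, 8 were higher and 9 lower, with a median of -0.027. At an unadjusted p under 0.05, 4 were higher, among them Fars2 (0.38 ± 0.11, limma FDR 0.335), Rars2 (0.28 ± 0.087, limma FDR 0.335) and Tars2 (0.29 ± 0.095, limma FDR 0.335), and 1 was lower, Gatc, a subunit of the amidotransferase that makes glutaminyl-tRNA (-0.29 ± 0.077, limma FDR 0.335). Of 13 genes for mitochondrial transcription and its nuclear regulators, 7 were higher and 6 lower (median 0.028), and 0 had an unadjusted p under 0.05 in limma.

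**Figure D4:**
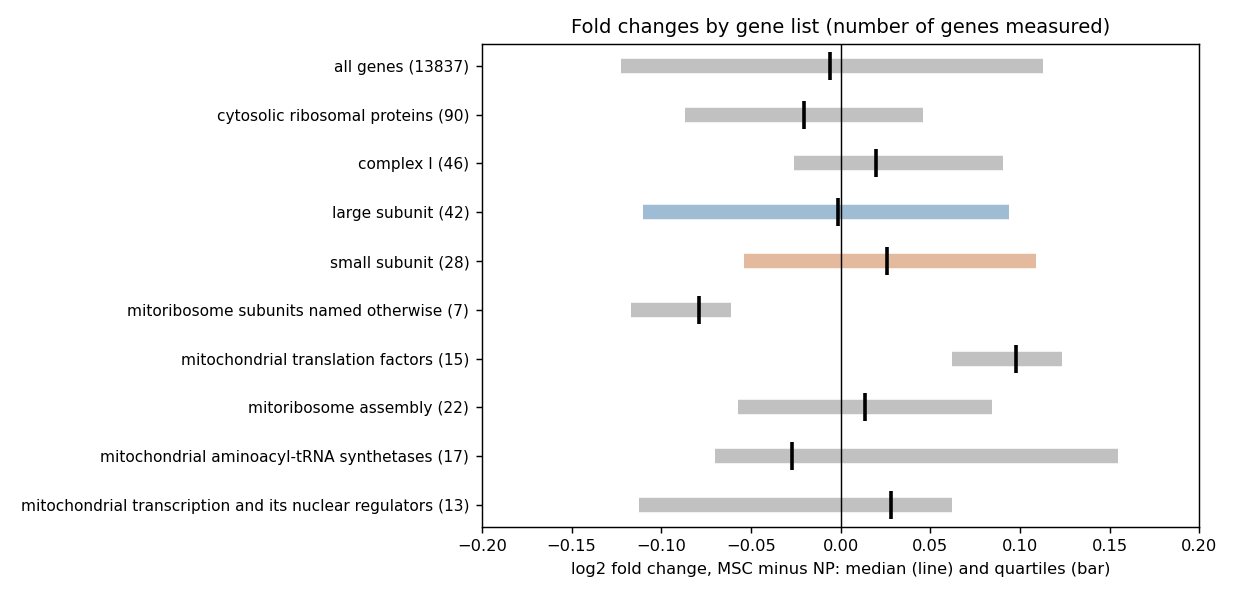
Median (black line) and quartiles (bar) of the log2 fold change, MSC minus NP (x axis), for each gene list, with the number of genes that passed the filter in brackets. The medians run from -0.079 for the 7 ribosomal proteins with other names to 0.098 for the 15 translation factors, and those of the large (blue) and small (orange) subunit are -0.0017 and 0.026.

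Nuclear genes of the mitochondrial ribosome are known to be driven by factors of the ETS family, by NRF1 and by YY1. RefSeq gave 56 promoter windows on GRCr8 for 54 of the members, each of 250 bases before and 50 after the start. The letters CCGGAAG (ETS core) were found on either strand in 17 of 56 (30.4%), against 8.75% of 33465 promoters of the same length. The letters GCATGCGC (NRF1 core) were found in 5 (8.93%, against 2.47%) and AAGATGGC (YY1 core) in 13 (23.2%, against 3.17%). The YY1 core lay before the start in Mrpl32 (-220), Mrpl48 (-177) and Mrpl36 (-16). In the other members with it, the core lay 0 to 29 bases from the start. Whether any of these letters are binding sites was not tested. The shares were close in both subunits for the ETS core (29.4% of the large and 31.8% of the small) and the YY1 core (23.5% and 22.7%), whereas the NRF1 core was in 4 of 34 promoters of the large (11.8%) and 1 of 22 of the small subunit (4.55%). These differences between the subunits were not tested. The median GC content of the member promoters was 55.8%, against 51.7% for all promoters, and the part of base composition in these shares was not tested.

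Only the promoter of Mrps18b held all 3, and it is shown for this, at chr20:2842756-2843055 on the plus strand, with the searched letters in capitals and copies of the NRF1 core that overlap on the opposite strands written as 1 run.
Mrps18b: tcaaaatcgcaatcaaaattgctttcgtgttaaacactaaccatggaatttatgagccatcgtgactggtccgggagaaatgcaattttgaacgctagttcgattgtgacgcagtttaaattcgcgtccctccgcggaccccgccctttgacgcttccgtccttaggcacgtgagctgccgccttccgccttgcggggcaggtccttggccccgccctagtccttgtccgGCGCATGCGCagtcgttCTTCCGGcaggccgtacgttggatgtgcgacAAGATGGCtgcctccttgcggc

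Mrpl46 and Mrps11, 1 gene of each subunit, lie head to head on chromosome 1, and their windows (chr1:142116981-142117280 on the minus and chr1:142117014-142117313 on the plus strand) shared 267 bases. Their log2 fold changes were 0.12 ± 0.082 (limma FDR 0.600) and -0.090 ± 0.076 (limma FDR 0.661). Neither passed the test, and both overlapped between the groups. No other windows of 2 members overlapped.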

How the data were processed

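Rat kidney RNA was labelled with Cy3 and read on 1-colour Agilent arrays. The authors deposited the spot intensity values made with Agilent Feature Extraction 10.7.3.1 and a table of normalized log2 values, which holds 30507 probes, controls included, and so was not filtered. From the intensities, mean pixel values without background subtraction were log2 transformed and normalized by cyclic loess, control and outlier spots were left out, and a probe was kept where its log2 value exceeded 1.1 times the 95th percentile of the negative controls on at least 4 arrays, a reading of the study's filter. Spots of a probe were averaged, the most variable probe was kept per gene, and NP and MSC were compared by limma's linear model with the Benjamini-Hochberg FDR. The fits were run with limma 3.58.1 under R 4.3.3. Values made here had an r of 0.999898 to 0.999973 per array with the deposited log2 values. Members and lists were chosen with earlier results of these data known. Genes are named where the unadjusted p was under 0.05, where the fold change was among the 3 highest or lowest of a subunit, or where names or probe numbers call for it, and Mrpl12, Mrpl14, Mrpl46 and Mrps11 were added after their values had been seen. Of 71 members, 66 were found in the RefSeq table by accession. The number of arrays limits the precision, and p-values measure the spread between kidneys, 1 per array as far as the labels say. The steps were tested on simulated data. No sample column was left unused (0 columns).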

Additional observations from a re-analysis of the deposited data

Results flagged for a closer look

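In 5 of 60 groups of arrays, NP and MSC for each of 27 named members and for the means of the large subunit, the small subunit and their difference, the highest or lowest array stood apart from the rest by more than the 95% critical value of Dixon's ratio, the gap to the nearest array over the range of the group. Chance alone does this in about 1 in 20 groups. In NP these were Mrpl10 (ratio 0.782), where NP 2 read 16.26 and the next array 15.71, Mrps18a (ratio 0.790), where NP 2 read 13.96 and the next 14.11, and Mrps18b (ratio 0.743), where NP 5 read 12.05 and the next 11.84. In MSC they were Mrpl38 (ratio 0.832), where MSC 1 read 11.97 and the next 11.77, and Mrpl41 (ratio 0.854), where MSC 4 read 14.66 and the next 14.76.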

How the results depend on the processing

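No member passed the FDR and the fold change together under any of 29 alternatives. The count of members higher at an unadjusted p under 0.05 was 6 as reported, where 6.58% of all genes were higher. Brackets give the share of all genes in each setting. The count was 2 with quantile normalization (5.93%), 0 with median scaling (2.2%) and 1 with 75th percentile scaling of background-subtracted intensity (6.37%). It was 0 within slide 1 (3.57%), 2 within slide 2 (3.64%), and 2 to 5 when each array was left out in turn (4.91% to 7.37%). The count of lower members was 2 as reported, where 5.10% of all genes were lower. It was 4 with background-subtracted intensity (5.17%), 1 with median scaling (4.18%), 5 with no filter (4.05%) and 4 with array weights (8.43%). It was 0 within slide 1 (2.22%), 1 within slide 2 (4.26%), and 0 to 4 when each array was left out (3.31% to 9.3%). Median scaling moved the median of the large subunit to -0.057 and that of the small subunit to -0.039, with that of all genes at -0.039. The median of the large subunit, -0.0017 as reported, also had a positive sign at 0.039 within slide 2 and ran from -0.016 to 0.013 when each array was left out. That of the small subunit, 0.026 as reported, was 0.068 with array weights and ran from 0.0017 to 0.046 when each array was left out. Large minus small was -0.028 as reported, -0.053 within slide 1, 0.023 within slide 2 and -0.047 to 0.0014 when each array was left out. The cause was not tested. Of the 8 members described in detail, none changed sign. Mrps15 kept an unadjusted p under 0.05 in 26 of 28 alternatives, Mrps35 in 22, Mrpl35 in 21 and Mrpl52 in 19. Mrpl23 kept it in 17, Mrpl42 in 16, Mrpl3 in 14 and Mrps22 in 10. With the brightest probe, Mrpl35 had 0.037.

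No source used here says whether the replicate numbers pair kidneys. Deviations of same-numbered arrays had an r of 0.20, 0.33, -0.35 and 0.045 over genes. With so few arrays in a group, these values cannot decide it. With the replicate block, in which NP 5 has no partner, 1 member was higher and 2 lower at that p. Of all genes, 6.29% were higher and 5.03% lower with that block.

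Signs near 0 turned. With median scaling, Mrpl10 had -0.052, Mrpl2 -0.059, Mrpl40 -0.022, Mrps16 -0.038, Mrps21 -0.014 and Mrps30 -0.025. With 75th percentile scaling of background-subtracted intensity, Mrpl10 had -0.0063, Mrpl2 -0.021, Mrpl40 -0.018 and Mrps16 -0.056. With background-subtracted intensity, Mrpl2 had -0.0093, Mrpl40 -0.0044 and Mrps16 -0.046. With the mean of probes, Mrpl2 had -0.0088 and Mrps16 -0.015, with the brightest probe Mrps16 -0.054, and with array weights Mrpl2 -0.0036. Within slide 1, Mrpl10 had -0.084, Mrpl2 -0.099 and Mrps36 0.0016, and within slide 2, Mrps16 -0.027. With each array left out, Mrpl10 ran from -0.029 to 0.15, Mrpl2 from -0.058 to 0.071, Mrpl40 from -0.027 to 0.11, Mrpl41 from -0.088 to 0.0087, Mrps16 from -0.098 to 0.095 and Mrps36 from -0.056 to 0.0032.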
